A study of Mus musculus with 8 samples.

Results

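The monocyte and inflammatory CC chemokines and the monocyte receptor gene Ccr2 were followed in islets of mice given diabetogenic T cells, with and without an antibody against interferon-γ (IFN-γ). Members were chosen by name: 9 ligand genes (Ccl2, Ccl3, Ccl4, Ccl5, Ccl6, Ccl7, Ccl8, Ccl9 and Ccl12) and 1 receptor gene, taken as every probe set that the platform annotation ties to exactly 1 of these symbols. That gave 15 probe sets of 34945 with 1 symbol, and 10 genes of 18193. All 10 genes and 13 of the 15 probe sets passed the filter on dim signal, which kept a probe set if 2 or more of the 8 arrays had it at their median or above.

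The protected group comprised 4 arrays of islets from NOD.Scid mice given CD4+ BDC2.5 T cells and an antibody against IFN-γ on day -1 and day 2 relative to the transfer, taken on days 3, 4, 5 and 8. The diabetogenic group comprised 3 arrays of islets from NOD.Scid mice given the same T cells and no antibody, taken on days 3, 4 and 8. The reference for both was 1 array of islets from NOD.Scid mice that received neither cells nor antibody. NOD.Scid mice have the autoimmunity-prone NOD background and form no mature T or B cells of their own, but keep monocytes, macrophages and NK cells, and BDC2.5 T cells recognise beta cells through a transgenic T cell receptor. Each array held RNA pooled from 5 mice, no arm and day was repeated, the labels name no control antibody, and the sources used here do not state the animals' age. Islets were cut out by laser, so each array measured endocrine cells together with whatever leukocytes had entered the captured area. In such bulk RNA, fewer cells of a type and less RNA per cell cannot be told apart.

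Chemokines are small secreted proteins that steer leukocytes through G protein-coupled receptors, and the CC class is named for its adjacent cysteines. CCR2 on classical monocytes responds to CCL2, CCL7 and, in mice, CCL12, and brings monocytes out of the bone marrow and into inflamed tissue. CCL3 and CCL5 act through CCR1, and they and CCL4 are made by activated T cells, NK cells and macrophages. CCL6 and CCL9 are rodent chemokines of myeloid cells that act through CCR1, and mouse CCL8 acts through CCR8.

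The 9 ligand genes lie in the same region of mouse chromosome 11 in groups of direct neighbours. In RefSeq (GRCm38.p6), Ccl2 stands next to Ccl7, Ccl12 next to Ccl8, and Ccl5, Ccl9, Ccl6, Ccl3 and Ccl4 follow each other. Ccr2 lies on chromosome 9. Promoter windows (250 bases before to 50 after the start, GRCm38.p6, RefSeq) were matched for 6 members, namely Ccl3, Ccl6, Ccl8, Ccl9, Ccl12 and Ccr2. Those of the neighbours Ccl6 and Ccl9, and Ccl12 and Ccl8, are shown because these 4 ligand genes were the ones higher in protected islets on every matched day. The windows are chr11:83593038-83593337 (minus strand) for Ccl6, chr11:83578587-83578886 (minus strand) for Ccl9, chr11:82114935-82115234 (plus strand) for Ccl8 and chr11:82101595-82101894 (plus strand) for Ccl12. Capitals mark the stretch that local alignment found in common between Ccl6 and Ccl9, and between Ccl8 and Ccl12.
Ccl6: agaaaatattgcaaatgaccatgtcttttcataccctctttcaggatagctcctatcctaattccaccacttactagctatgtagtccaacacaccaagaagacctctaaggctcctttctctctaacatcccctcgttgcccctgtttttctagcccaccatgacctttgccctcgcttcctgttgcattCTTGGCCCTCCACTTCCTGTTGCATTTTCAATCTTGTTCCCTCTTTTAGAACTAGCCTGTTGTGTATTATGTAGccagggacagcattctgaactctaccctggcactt
Ccl9: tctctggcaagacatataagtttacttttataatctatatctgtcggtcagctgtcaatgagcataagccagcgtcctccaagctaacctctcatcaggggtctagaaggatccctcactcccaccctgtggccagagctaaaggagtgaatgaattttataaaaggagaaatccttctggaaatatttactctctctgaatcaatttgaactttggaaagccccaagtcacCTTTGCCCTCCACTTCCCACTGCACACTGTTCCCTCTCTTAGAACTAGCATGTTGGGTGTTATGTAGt
Ccl8: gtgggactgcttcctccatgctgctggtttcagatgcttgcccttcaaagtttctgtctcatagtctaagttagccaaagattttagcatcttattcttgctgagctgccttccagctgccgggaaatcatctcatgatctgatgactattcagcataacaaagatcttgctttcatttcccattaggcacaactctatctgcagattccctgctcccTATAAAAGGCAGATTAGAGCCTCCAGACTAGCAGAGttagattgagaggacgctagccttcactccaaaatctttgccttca
Ccl12: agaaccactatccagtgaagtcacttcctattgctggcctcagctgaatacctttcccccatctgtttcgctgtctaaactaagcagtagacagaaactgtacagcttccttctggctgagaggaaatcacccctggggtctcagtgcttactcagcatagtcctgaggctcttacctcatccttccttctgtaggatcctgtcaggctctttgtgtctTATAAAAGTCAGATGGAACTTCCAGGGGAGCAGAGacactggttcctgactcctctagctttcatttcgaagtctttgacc
The Ccl6 and Ccl9 windows shared 59 identical bases over 74 aligned columns, and those of Ccl8 and Ccl12 shared 28 over 36. These were the top-scoring of the 15 pairs among the 6 windows, with alignment scores of 71 and 30 against at most 21 for the other pairs. The Ccl8 and Ccl12 stretches both open with a TATA box (TATAAA, searched on both strands), at base 219 of the Ccl8 window and base 220 of the Ccl12 window. That motif was found in 3 of the 6 member windows, Ccl9 being the other, and in 13.6% of 32851 mouse promoter windows. The STAT6 element (TTC and GAA with any 4 bases between, in 6.95% of all windows) and the core of the interferon-stimulated response element (GAAA and GAAA with any 2 bases between, 3.44%) had no match in any of the 6 windows, on either strand. An NF-kB site matched in 1 of the 6, that of Ccl9 at base 216, and in 8.46% of all windows.

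The arrays differed in how much bright signal they held. Array medians of intensity lay between 3.14 and 3.96, whereas the share of probe sets that reached 8 times that median was 5.34%, 2.24%, 3.85% and 3.09% in protected islets on days 3, 4, 5 and 8, 4.73%, 0.850% and 2.01% in diabetogenic islets on days 3, 4 and 8, and 4.74% in untreated islets. Spiked hybridisation controls had median intensities of 1.48 to 2.29 for untreated islets and the pair of day 3, but of 551 to 1712 on the 5 later arrays, so that split ran between days and not between the arms of a matched day. The 3' signal of Actb over its 5' signal, a sign of RNA quality, was 5.01, 9.24, 24.2 and 10.5 in protected islets on days 3, 4, 5 and 8, 5.54, 2.25 and 13.8 in diabetogenic islets on days 3, 4 and 8, and 1.86 in untreated islets, and that of Gapdh on day 4 was 10.5 in protected and 2.78 in diabetogenic islets. Their part in the results was not tested. The insulin gene Ins2 stood between 3409 and 6359 on all 8 arrays, but other endocrine markers did not hold their level. The glucagon gene Gcg stood at 895 in protected and 52.8 in diabetogenic islets of day 4, against 1996 in untreated islets, and the granule protein gene Chgb at 235 in protected and 21.95 in diabetogenic islets of that day, against 1144 in untreated islets. Intensities are given as deposited, on a linear scale. Those of different genes are not compared as expression levels, and a sum over the probe sets of a marker list is weighted towards its brightest ones. Differences and folds are on the scale of log2(intensity + 2.155), which understates the change of dim genes.

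Given the antibody, islets had more Ccl9 signal by its brighter probe set, a call that some alternatives lost, while Ccl5 leaned the opposite way without passing. Over the matched days 3, 4 and 8, 1 of the 10 members passed, Ccl9, which was 7.43-fold higher in protected than in diabetogenic islets (limma with day as a block, adjusted p = 0.00253). Of all 16396 genes tested 0.104% passed, 0.0915% higher and 0.0122% lower in protected islets. By each gene's brightest probe set, Ccl6, Ccl8, Ccl9, Ccl12 and Ccr2 were higher in protected islets on all 3 days, 5 of 10 members, where 20.1% of all genes were. Ccl3 and Ccl5 were higher in diabetogenic islets on all 3 days, 2 of 10, where 11.7% of all genes were. Ccl3 was so by sign only, as its arms were close (1.02-fold, 1.19-fold and 1.05-fold on days 3, 4 and 8). Ccl2, Ccl4 and Ccl7 changed sign between days. The median difference of the members was 0.44, against 0.07 over all genes, and Ccl6, Ccl8, Ccl9 and Ccl12 had an unadjusted p under 0.05, against 8.91% of all genes. Ccl12 reached the filter through the 4 protected arrays alone, which favours a higher level there, so no count or median that includes it is support.

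**Figure D1:**
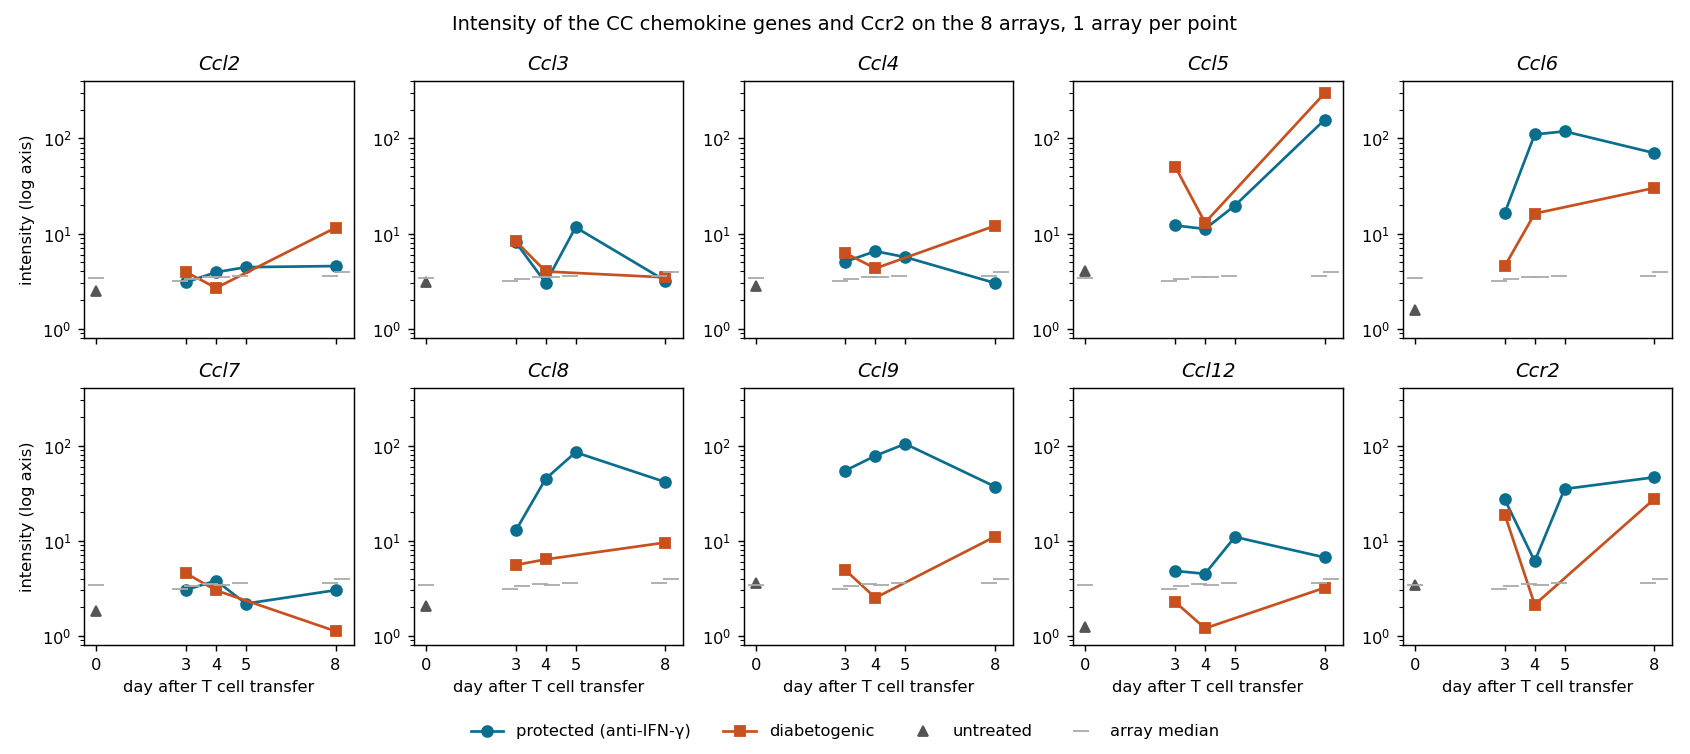
Intensity (log axis) of each of the 10 members on each array, against the day after T cell transfer, for 4 protected arrays, 3 diabetogenic arrays and 1 untreated array placed at day 0, with grey dashes at each array's median. Ccl8, Ccl9 and Ccl12 lay higher on all 4 protected arrays than on any diabetogenic one, and Ccl5 stood highest on the diabetogenic array of day 8 (297). Ccl12 met the filter through its protected arrays alone, so its separation is not counted.

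Ccl9, a myeloid chemokine that attracts CCR1-bearing cells, stood at 54.6, 78.0, 104 and 37.1 in protected islets on days 3, 4, 5 and 8, against 4.90, 2.51 and 11.0 in diabetogenic islets on days 3, 4 and 8 and 3.61 in untreated islets. All 4 protected values lay above all 3 diabetogenic ones, and the diabetogenic arrays of days 3 and 4 were near the untreated level. The protected values ranked between the 97.7th and 99.2nd percentile of their arrays, while the diabetogenic ones ranked at the 67.3rd, 32.5th and 89.1st on days 3, 4 and 8. The difference was 8.04-fold on day 3, 17.2-fold on day 4 and 2.97-fold on day 8. Fitted over the 3 days it was 2.89 ± 0.47 on the log2 scale (SE, limma, 3 day pairs, adjusted p = 0.00253). Without the day 4 pair, whose diabetogenic array had the smallest share of bright probe sets, it was 2.29 (adjusted p = 0.000978). The call was lost with quantile normalization (2.73, adjusted p = 0.167), without the day block (adjusted p = 0.9996) and when all probe sets of a gene were averaged (1.34, adjusted p = 0.752). Over its 12 alternatives the adjusted p of Ccl9 lay between 1.57e-05 and 0.9996, and its difference stayed positive, from 1.34 to 3.56. A second Ccl9 probe set stood between 1.51 and 2.65 on the protected arrays, between 1.81 and 4.03 on the diabetogenic arrays and at 1.32 on the untreated one, reaching its array's median on 1 array, and gave -0.21 ± 0.30.

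Ccl6, the neighbour of Ccl9 and also a myeloid ligand of CCR1, was measured by a pair of probe sets. The brighter stood at 16.5, 110, 118 and 70.1 in protected islets on days 3, 4, 5 and 8, against 4.55, 16.2 and 30.1 in diabetogenic islets on days 3, 4 and 8 and 1.56 in untreated islets. Every injected array was above the untreated one, and the arms overlapped only in that protected islets of day 3 stood below diabetogenic islets of day 8. The difference was 2.79-fold, 6.10-fold and 2.24-fold on days 3, 4 and 8, and the fitted value of 1.75 ± 0.48 did not pass (adjusted p = 0.299). Its name ends in _s_at, which in Affymetrix usage marks probes that can match more than 1 transcript. The other probe set stood at 21.1, 15.8, 43.9 and 14.2 on the protected arrays, against 6.13, 1.51 and 7.54 on the diabetogenic arrays and 1.47 in untreated islets, with no overlap between the arms. It gave 1.51 ± 0.38 when every probe set was fitted on its own (adjusted p = 0.701).

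Among the ligands of the monocyte chemoattractant family, Ccl8 and its neighbour Ccl12 stood higher on every protected array than on any diabetogenic one. Ccl8 stood at 12.8, 44.7, 84.9 and 41.4 in protected islets on days 3, 4, 5 and 8, against 5.56, 6.36 and 9.56 in diabetogenic islets on days 3, 4 and 8 and 2.08 in untreated islets. The arms did not overlap, and every injected array was above the untreated one. The difference was 1.94-fold, 5.51-fold and 3.72-fold on the 3 days, fitted at 1.77 ± 0.42 (3.41-fold, adjusted p = 0.137), and without the day 3 pair it passed (2.18, adjusted p = 0.0451, up to 0.9996 under the other alternatives). Ccl12, a CCR2 ligand of mice, was dimmer, at 4.81, 4.49, 11.0 and 6.68 on the protected arrays, against 2.27, 1.20 and 3.20 on the diabetogenic arrays and 1.25 in untreated islets. Its arms did not overlap either, although the diabetogenic values were below their arrays' medians, and its fitted difference of 0.79 ± 0.33 did not pass (adjusted p = 0.506). Complete separation with protected islets higher was seen in Ccl8 and Ccl9, and in 2.31% of all genes tested, and the opposite in 0 of 10 members and 1.83% of all genes. The separation of Ccl12 was favoured by the filter, which only its protected arrays met, and is not counted.

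Ccl2 and Ccl7, the other CCR2 ligands and neighbours of each other, were dim on most arrays. Ccl2 stood at 3.08, 3.92, 4.43 and 4.55 in protected islets on days 3, 4, 5 and 8, against 3.93, 2.68 and 11.5 in diabetogenic islets on days 3, 4 and 8 and 2.51 in untreated islets. Its 1 distinct value was that of diabetogenic islets on day 8, at the 90.0th percentile of the array, 2.04-fold above protected islets of that day. The fitted difference was -0.30 ± 0.35 (adjusted p = 0.815), and its sign turned without the day 8 pair (0.06). Ccl7 stood between 2.18 and 3.81 on the protected arrays, between 1.12 and 4.53 on the diabetogenic arrays and at 1.84 in untreated islets, and gave 0.17 ± 0.33 (adjusted p = 0.908, and -0.08 without the day 8 pair). At or above the median on 2 of 8 arrays, it was at the limit of the filter.

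Ccr2, the receptor of CCL2, CCL7 and CCL12 and the marker of classical monocytes in the list, stood at 27.1, 6.08, 34.95 and 46.3 in protected islets on days 3, 4, 5 and 8, against 18.8, 2.13 and 27.4 in diabetogenic islets on days 3, 4 and 8 and 3.40 in untreated islets. By this brightest Ccr2 probe set the arms overlapped, both dipping on day 4, where the share of bright probe sets was 2.24% and 0.850%. Protected islets were 1.40-fold, 1.92-fold and 1.64-fold higher on the matched days, fitted at 0.71 ± 0.41 (adjusted p = 0.615). The 3 other Ccr2 probe sets were dimmer, with means of 2.03 to 5.54 where the chosen one had 20.8, and gave differences from -0.38 to 0.17. The brightest of them rose from day 3 to day 4, from 3.09 to 8.73 in protected and from 1.68 to 6.34 in diabetogenic islets. On day 8 it was lower in protected islets (-0.52 on the log2 scale). Another was lower there on days 3 and 8 (-0.54 and -0.65). The dimmest was higher there on all 3 days (0.14, 0.09 and 0.29), but reached the median of 0 arrays.

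Ccl5, a ligand of CCR1 and CCR3 that activated T cells and NK cells make in quantity, was the member that leaned furthest towards the diabetogenic arm. It stood at 12.2, 11.2, 19.7 and 157 in protected islets on days 3, 4, 5 and 8, against 50.5, 13.02 and 297 in diabetogenic islets on days 3, 4 and 8 and 4.04 in untreated islets. On day 8 it reached the 99.5th percentile of the protected array and the 99.8th of the diabetogenic one, so both arms were high on that day. The diabetogenic arm was 3.68-fold higher on day 3, 1.14-fold on day 4 and 1.89-fold on day 8. The fitted difference, protected minus diabetogenic, was -0.99 ± 0.55 and did not pass (adjusted p = 0.606), though it did after cyclic loess normalization (-1.63, adjusted p = 0.0442, up to 0.9996 under the other alternatives).

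Ccl3 and Ccl4, neighbouring genes for the macrophage inflammatory proteins, stood between 2.79 and 12.1 on all 8 arrays. Ccl3 stood at 8.06, 3.03, 11.6 and 3.20 in protected islets on days 3, 4, 5 and 8, against 8.29, 3.99 and 3.46 in diabetogenic islets on days 3, 4 and 8 and 3.10 in untreated islets. The arms were close on each matched day, with a fitted difference of -0.12 ± 0.34 (adjusted p = 0.948). Ccl4 stood at 5.06, 6.52, 5.65 and 3.02 on the protected arrays, against 6.22, 4.30 and 12.1 on the diabetogenic arrays and 2.79 in untreated islets. Like Ccl2 it was highest in diabetogenic islets of day 8, 2.74-fold above protected islets of that day, and its fitted difference was -0.42 ± 0.38 (adjusted p = 0.758, and 0.11 without the day 8 pair).

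**Figure D2:**
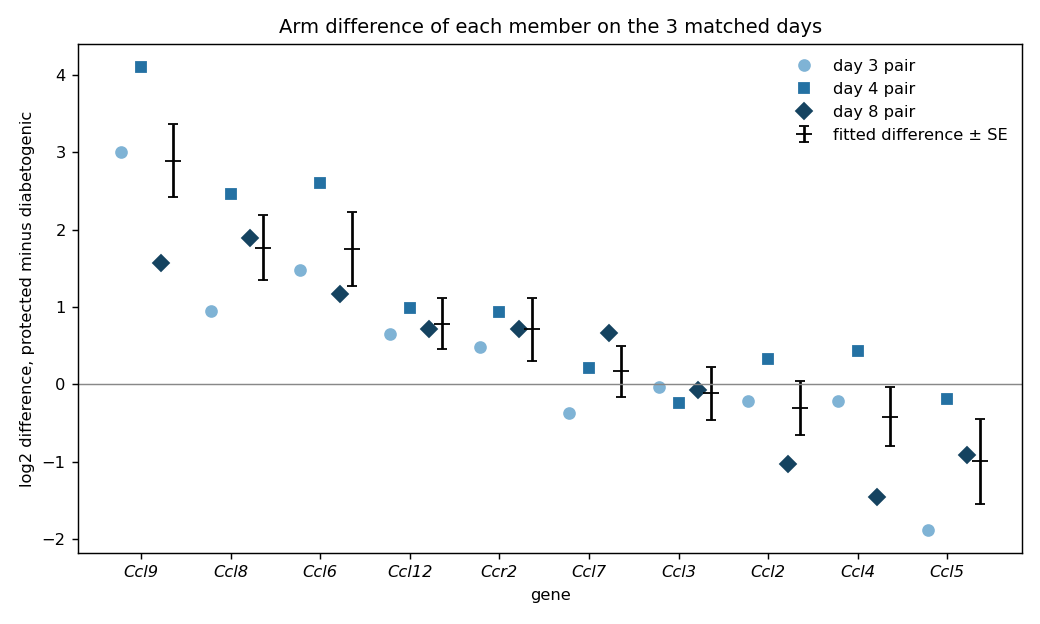
Log2 difference, protected minus diabetogenic, of each member on the matched days 3, 4 and 8 (points, 1 array per arm) with the fitted difference and its SE (black bars). Ccl9, Ccl8, Ccl6, Ccl12 and Ccr2 lay above 0 on all 3 days, and Ccl5 and, by little, Ccl3 below 0. Only Ccl9 (2.89) passed the threshold, and Ccl12 met the filter through its protected arrays alone.

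On single days, where each arm had 1 array and nothing was tested, the members at least 2-fold higher in protected islets were Ccl6 and Ccl9 on day 3, and Ccl6, Ccl8 and Ccl9 on days 4 and 8. That is 2, 3 and 3 of 10 members, against 0.506%, 14.2% and 14.1% of all genes on the 3 days. Those at least 2-fold lower were Ccl5 on day 3 (1 of 10, against 1.40% of all genes), 0 of 10 on day 4 (against 6%), and Ccl2 and Ccl4 on day 8 (2 of 10, against 9.39%). Ccl6, Ccl8, Ccl9, Ccl12 and Ccr2 had their largest arm difference on day 4, where the 99th percentile of intensity was 67.0 on the protected array and 25.6 on the diabetogenic one. On day 3, where those percentiles were 86.6 and 89.5, Ccl9 differed 8.04-fold and Ccl6 2.79-fold.

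The next comparison set each arm against untreated islets, and asked which of these genes differed after T cell transfer with and without the antibody. All 10 members had a positive difference in both arms, with a median of 1.77 in the protected arm and 0.78 in the diabetogenic arm, against -0.05 and -0.10 over all genes, of which 47% and 44.4% were positive. Yet 0 of 10 passed by limma in either arm, nor did any of the 16396 genes (0% called). At an unadjusted p under 0.05 there were 4 members in the protected arm (Ccl6, Ccl8, Ccl9 and Ccl12, against 2.23% of all genes) and 1 in the diabetogenic arm (Ccl5, against 2.70%). The 2 comparisons share the untreated array. Only Ccl5 (4.04) and Ccl9 (3.61) reached the untreated array's median of 3.42. The other members met the filter through injected arrays alone, which favours a positive difference, so these counts and medians are no support.

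In the protected arm the differences from untreated islets were 4.14 ± 1.18 for Ccl6, 3.52 ± 0.95 for Ccl9, 3.25 ± 0.95 for Ccl8, 2.21 ± 1.12 for Ccr2 and 1.33 ± 0.53 for Ccl12 (SE, limma, adjusted p = 0.9998 for each). In the diabetogenic arm the same genes gave 2.09 ± 1.22, 0.39 ± 0.98, 1.11 ± 0.98, 1.32 ± 1.16 and 0.34 ± 0.54 (adjusted p from 0.887 to 0.954). Ccl5 gave 2.20 ± 1.51 in the protected arm and 3.32 ± 1.56 in the diabetogenic arm. Ccl2, Ccl3, Ccl4 and Ccl7 gave 0.36 to 0.59 in the protected arm and 0.28 to 0.89 in the diabetogenic arm. On all 7 injected arrays, Ccl2, Ccl4, Ccl5, Ccl6 and Ccl8 stood above the untreated array, 5 of 10 members, where 8.84% of all genes did. Lower on all 7 than on the untreated array were 0 of 10, against 16.8% of all genes. Of the 5 above it on all 7, only Ccl5 reached the untreated array's median, so these counts are no support either.

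The untreated array shared its low spiked controls with the day 3 arrays only, so day 3 gives the comparison on the same side of that split. There Ccl9 was 9.84-fold, Ccl6 5.03-fold, Ccl8 3.53-fold and Ccr2 5.27-fold above untreated islets in the protected arm. In the diabetogenic arm of day 3 they were 1.22-fold (Ccl9), 1.80-fold (Ccl6, same probe set), 1.82-fold (Ccl8) and 3.77-fold (Ccr2) above untreated islets. Ccl5 was 8.50-fold above untreated islets in that arm, and 2.31-fold in the protected arm. With the spiked control level as a block, the difference of Ccl6 from untreated islets was 2.52 in the protected arm and 0.66 in the diabetogenic arm, and that of Ccl9 was 3.35 in the protected arm and 0.24 in the diabetogenic arm.

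**Figure D3:**
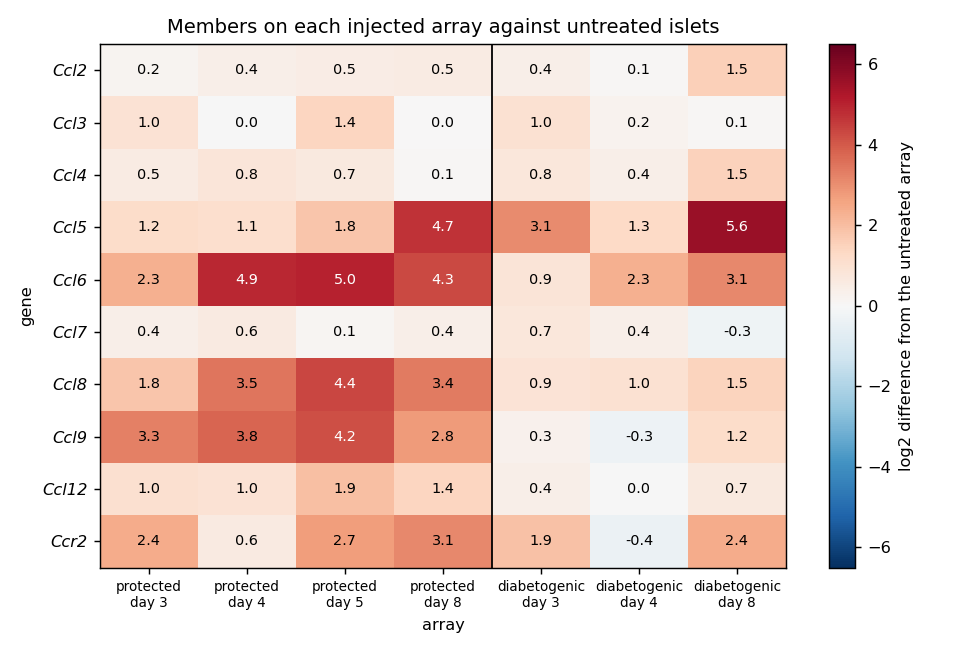
Log2 difference of each member (rows) on each of the 4 protected and 3 diabetogenic arrays (columns) from the untreated array, printed in each cell and coloured from blue (lower) to red (higher). All members other than Ccl3 lay above 0 on all 4 protected arrays, and the values of Ccl5 were highest on the day 8 arrays of both arms. Members other than Ccl5 and Ccl9 met the filter through injected arrays alone.

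Over the days after transfer, the members followed unlike courses. In a fit of the 7 injected arrays with 1 slope for both arms, 0 of 10 members passed by limma, 0% of all genes did, and 1 member had an unadjusted p under 0.05, against 9.07% of all genes. That was Ccl5, with a slope of 0.71 ± 0.19 log2 units per day (adjusted p = 0.449). It passed with the level of the spiked controls as a block (0.98 per day, adjusted p = 0.0210) and after cyclic loess normalization (0.73, adjusted p = 0.0210), and under the other alternatives its adjusted p went up to 0.9995. Within the protected arm, Ccl6, Ccl8, Ccl9, Ccl12 and Ccl3 were highest on day 5, for which no diabetogenic array was analysed, while Ccl5, Ccr2 and Ccl2 were highest on day 8. Within the diabetogenic arm, Ccl2, Ccl4, Ccl5, Ccl6, Ccl8, Ccl9, Ccl12 and Ccr2 were highest on day 8, and Ccl3 and Ccl7 on day 3. The other slopes lay between -0.13 (Ccl3) and 0.31 (Ccl6) per day.

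Of the 7 other receptors of these chemokines, 6 had a probe set and 4 were tested, of which 0 passed between the arms, and the median was 0.06. Ccr1, the receptor of CCL6 and CCL9, stood at 4.90, 4.07, 7.94 and 3.60 in protected islets on days 3, 4, 5 and 8, against 2.09, 4.40 and 6.63 in diabetogenic islets on days 3, 4 and 8 and 2.42 in untreated islets (0.02 ± 0.35). Its arms overlapped. The atypical receptors, which bind chemokines without classical G protein signalling, gave -0.49 ± 0.36 (Ccrl2), 0.10 ± 0.40 (Ackr1) and 0.23 ± 0.38 (Ackr2). Ccr3 and Ccr8 did not pass the filter, with intensities up to 5.55 and 6.73.

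Of 3 further lists, of genes from pathways that induce chemokines, 0 genes passed, and their counts of positive arm differences stand beside 56.8% of all genes. Among NF-kB and innate cytokine genes, 0 of 11 tested passed and 9 were positive (median 0.53), the largest being the inhibitor gene Nfkbia (1.32 ± 0.77), Relb (-0.90 ± 0.36) and Nfkb2 (0.88 ± 0.32). Nfkb2 met the filter through protected arrays alone, so neither its difference nor a count or median that includes it is support. Outside the diabetogenic arm, Relb reached the median only on the protected array of day 8 (3.99 against 3.56). It would not have met the filter without its diabetogenic arrays, so the same limit holds for Relb. Of the IFN-γ response genes 0 of 9 passed and 4 were positive (median -0.01), led by the chemokine genes Cxcl9 (-2.27 ± 0.54) and Cxcl10 (-0.87 ± 0.43) and the GTPase gene Gbp2 (-1.29 ± 0.65). Ifng itself stood at 27.6, 15.9, 31.8 and 7.62 in protected islets on days 3, 4, 5 and 8, against 43.8, 17.4 and 3.80 in diabetogenic islets on days 3, 4 and 8 and 1.92 in untreated islets (-0.01 ± 0.42). Of the type 2 cytokine genes 0 of 6 passed and 3 were positive (median 0.12), with Il13 at -0.95 ± 0.35, Il4 at 0.71 ± 0.33 and Il4ra at 0.69 ± 0.39. Il4 too met the filter through protected arrays alone, and the same limit holds for it.

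Markers of the cells that make these chemokines had the following values, and their part in the results was not tested. Of 13 monocyte and macrophage markers 11 were tested, 0 of which stayed below the array median on all 8 arrays, 10 were positive, against 56.8% of all genes, and 1, the scavenger receptor gene Cd163, passed (1.89 ± 0.37, adjusted p = 0.0233). Outside the protected arm, Cd163 reached the median only on the diabetogenic array of day 4 (3.47 against 3.46). It would not have met the filter without its protected arrays, so neither its call nor a count or median that includes it is support. The other large members were Csf1r (1.29 ± 1.29) and Lyz1 (1.08 ± 0.98). The median of the list was 0.35, 0.62 and 0.31 on days 3, 4 and 8. The summed intensity of the 11 genes was 349, 1676, 1489 and 1844 in protected islets on days 3, 4, 5 and 8, against 268, 182 and 2150 in diabetogenic islets on days 3, 4 and 8 and 76.0 in untreated islets. The sum was carried by Csf1r, Lyz1 and Lyz2, and on day 8 it was lower in protected islets while the median of the list was positive.

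**Figure D4:**
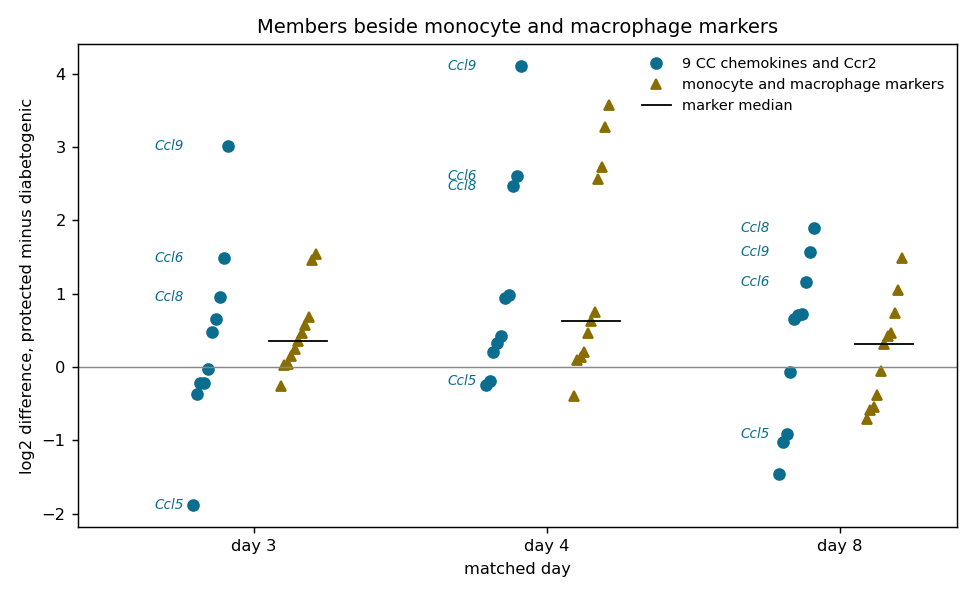
Log2 difference, protected minus diabetogenic, of the 10 members (circles) and of 11 monocyte and macrophage markers (triangles, median as a line) on the matched days 3, 4 and 8. The marker medians were 0.35, 0.62 and 0.31, and Ccl9 lay above every marker on days 3, 4 and 8. The marker Cd163 would not have met the filter without its protected arrays.

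For the T cells, which are a source of Ccl5, 8 of 9 markers had a probe set, 7 were tested and 0 passed. The largest differences were 1.30 ± 0.39 for Cd3e, -0.51 ± 0.35 for Cd247 and 0.48 ± 0.42 for Thy1. Their summed intensity was 37.3, 54.9, 59.2 and 90.9 in protected islets on days 3, 4, 5 and 8, against 38.5, 32.6 and 62.8 in diabetogenic islets on days 3, 4 and 8 and 21.1 in untreated islets, a sum to which Thy1 gave the largest part on most arrays, and the markers differed in both directions on day 3. The 5 NK cell markers summed to 29.0, 22.1, 17.9 and 30.6 in protected islets on days 3, 4, 5 and 8, against 52.8, 19.4 and 38.5 in diabetogenic islets on days 3, 4 and 8 and 18.7 in untreated islets. Most of the day 3 gap was Gzma, a granule protease of T and NK cells, at 16.6 in protected and 37.8 in diabetogenic islets. Of 7 dendritic cell markers tested 6 were positive (median 0.23) and 0 passed, the largest being the integrin gene Itgax, also found on macrophages (1.65 ± 0.39, adjusted p = 0.137), Cd209a (0.81 ± 0.39) and Batf3 (0.76 ± 0.32). Batf3 met the filter through protected arrays alone, so neither its difference nor a count or median that includes it is support. Outside the protected arm, the T cell marker Cd3e reached the median only on the diabetogenic array of day 8 (9.71 against 3.96). It would not have met the filter without its protected arrays, so the same limit holds for Cd3e. Itgax stood at 19.2, 9.53, 41.7 and 30.2 in protected islets on days 3, 4, 5 and 8, against 10.04, 1.16 and 4.32 in diabetogenic islets on days 3, 4 and 8 and 3.20 in untreated islets, so it was higher in protected islets on each matched day, as Ccl6, Ccl8 and Ccl9 were. The acinar markers, 6 of 6 positive, had medians of -0.18, 4.39 and 2.50 on days 3, 4 and 8, and those of islet endocrine cells, 8 of 9 positive, 0.12, 1.55 and 0.23. Over the 11 cell type lists other than the monocyte and macrophage list, 0 of 58 genes tested passed.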

How the data were processed

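Islets of 8 pools of mice were measured on Affymetrix arrays after amplification and biotin labelling, per the labels' protocols. The authors deposited linear intensities of 45101 probe sets, and the sources used here do not state the summary or scaling behind them. The scale was kept, since array medians of log2(intensity + 2.155), a log2 scale computed here from the deposited intensities, lay within 0.21 of each other (limit 0.3). The pseudocount is a typical 25th percentile, the median of those of the 8 arrays. Gene symbols came from the platform annotation, 64 control probe sets were left out, and each gene was represented by its probe set with the highest mean, leaving 16396 genes.

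Fits used limma 3.58.1 in R 4.3.3 (lmFit, eBayes with a variance trend, two-sided, Benjamini-Hochberg over all genes, threshold 0.05). The arms were compared over 6 arrays with day as a block, each arm with the untreated array over all 8 arrays, and the change per day over 7 arrays. The lone untreated array was assumed to vary like the days within an arm. The arm fit had 2 residual degrees of freedom per gene against about 27.1 from the trend over all genes, so its SEs and p-values rest mostly on genes of like level. Nothing but pooled mice of different days stands for replication, and precision is limited by how few arrays there are. The fits were tested on simulated data. Alternatives were other pseudocounts, filters, normalizations, probe set rules and variance priors, no day block, and leaving out arrays. The members, gene lists and tests were chosen with earlier results of these data known. All 10 members, the 7 other receptors and up to 3 genes of each further list with the largest arm difference were eligible to be named, with Ifng. Promoter windows were taken from RefSeq, and a motif match is a description of letters only.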

Additional observations from a re-analysis of the deposited data

How the results depend on the processing

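The number of members passing between the arms, 1 as reported, was 0 with quantile normalization, 0 with a gene's probe sets averaged, 0 without the day block and 2 (Ccl9 and Ccl5) after cyclic loess normalization. Leaving out a day pair gave 1 to 2, the second being Ccl8 without the day 3 pair. Both other pseudocounts, no filter, equal array medians, single probe sets and eBayes without the trend gave 1. Over all genes the count, 17, was 1 with quantile normalization, 0 with the mean of probe sets or without the block, 8 with the larger pseudocount, 11 with no filter or without the trend, and 35 to 71 when a day pair was left out. The members' count for the change per day, 0 as reported, was 1 (Ccl5) after cyclic loess normalization and 1 with the spiked control level as a block, an alternative chosen after seeing the data. Against untreated islets it was 0 in both arms under all alternatives run. Signs turned for uncalled values only. With a day pair left out, the arm difference ranged from -0.62 (without day 4) to 0.056 (without day 8) for Ccl2, from -0.84 (without day 4) to 0.11 (without day 8) for Ccl4 and from -0.078 (without day 8) to 0.43 (without day 3) for Ccl7. With 1 array left out, Ccl9 in the diabetogenic arm against untreated islets ranged from -0.0071 (without diabetogenic day 8) to 0.74 (without diabetogenic day 4), and the slopes from -0.13 to 0.17 for Ccl4 and from -0.17 to 0.26 for Ccl9 (lowest without diabetogenic day 8, highest without protected day 8). With the spiked control level as a block the slope of Ccl8 was -0.0063. The causes were not tested. Under the 3 other scalings all 10 arm differences kept their sign, and the median of all genes shifted by -0.08 to 0.05. The day block of the arm fit pairs the arms by day, and no animal or replicate number links them further. Dim members (Ccl2, Ccl3, Ccl4, Ccl7 and Ccl12) lay near the array medians, where signal over background limits what a difference can show. In each of the 10 members the 4 protected arrays were also searched for an array far from the others, and 0 were found.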
